A study of Mus musculus with 44 samples.

Results

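The genes described here encode the subunits of the respiratory chain and of ATP synthase in the mouse left ventricle. They were taken by symbol: every gene whose array annotation starts with Nduf, Uqcr, Cox4, Cox5, Cox6, Cox7, Cox8 or Atp5, together with Cyc1 and Cycs. The rule found 82 genes among the 12394 with a probe set of their own. Of these, 33 belong to complex I, 5 are assembly factors of complex I (Ndufaf1, Ndufaf3, Ndufaf4, Ndufaf5 and Ndufaf7), 9 belong to complex III, 17 to complex IV and 17 to complex V, and Cycs encodes the carrier cytochrome c. Ndufa4 was counted with complex IV, where its product is now placed. Ndufb4, Ndufa11 and Ndufs6 were measured only by probe sets that match several genes and were not counted.

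Complexes I, III and IV pass electrons from NADH to oxygen and pump protons across the inner mitochondrial membrane, and complex V uses the resulting gradient to make ATP. Most of their subunits are encoded in the nucleus and a small set is encoded in mitochondrial DNA. The heart is among the tissues richest in these proteins, and for several complex IV subunits heart and skeletal muscle use isoforms that differ from those of most other tissues.

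The study measured 44 left ventricles, 1 array per mouse, in 4 groups. PKCe mice carried a constitutively active (A159E) rabbit PKCε transgene that the mouse Myh6 promoter drives in cardiomyocytes, on the FVB/N background, and were given FG-3149, an antibody against connective tissue growth factor (12 mice, 6 female and 6 male), or nonimmune mouse IgG (10 mice, 5 female and 5 male). Nontransgenic FVB/N mice, called FVB, were given FG-3149 (12 mice, 6 female and 6 male) or IgG (10 mice, 7 female and 3 male). Both antibodies were injected into the peritoneum at 30 mg/kg, 2 times a week for 3 months, and all mice were 6 months old when tissue was taken, so each group carried an antibody and none was uninjected. The series title calls the transgenic mice a model of dilated cardiomyopathy.

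Values are log2 of the authors' ratios, in which every probe set has a median of 1 over the arrays. A value of 0 is therefore a gene's own median, and levels cannot be compared between genes. A difference was called at an adjusted p under 0.05 (limma with a term for sex, Benjamini-Hochberg over all 12394 genes), and errors are the SE of that fit unless SD is named. Because every gene is set to its own median, the ratios cannot show whether a marker is present at all, only how it differs between arrays. The mean of 13 ventricular cardiomyocyte genes was -0.11 ± 0.11 in PKCe IgG hearts and -0.10 ± 0.12 in FVB IgG hearts (SD, n = 10 each), but its genes went both ways. In PKCe IgG hearts 6 of 13 were called lower, against 21.5 percent of all genes, and 2 were called higher. Myh7, the slow myosin heavy chain, differed by 3.22, and without it the mean difference of the other 12 was -0.29. The genes called lower were Myh6, whose promoter drives the transgene (-1.49), Ryr2 (-0.78), Atp2a2 (-0.49), Pln (-0.41), Ckm (-0.38) and Tnni3 (-0.15). Their part in the members' differences was not tested beyond a covariate of the list's mean, Myh7 included. Genes of other tissue stood high on some arrays. The mean of the atrial genes Sln, Myl7 and Myl4 exceeded 4 on 10 arrays (2 PKCe FG-3149, 2 PKCe IgG, 1 FVB FG-3149 and 5 FVB IgG), and the lung genes Sftpc and Scgb1a1 both exceeded 3 on 2 arrays, numbers 9 and 10 of the PKCe IgG females. White adipocyte markers set FVB IgG hearts apart: the mean of 6 genes was -0.17 ± 0.65 in PKCe FG-3149, -0.22 ± 0.63 in PKCe IgG, -0.18 ± 0.66 in FVB FG-3149 and 1.27 ± 1.18 in FVB IgG hearts (SD), with 1 FVB IgG array at 3.26. All 9 fibroblast markers were higher in PKCe IgG than in FVB IgG hearts (median difference 1.46), and 5 of the 9 were lower in PKCe FG-3149 than in PKCe IgG hearts. The shares of all genes called in those directions are not given beside these marker counts. The Y-linked gene Uty stood from 3.78 to 4.86 on the 20 arrays labelled male and from -0.68 to 0.02 on 23 labelled female, while FVB FG-3149 array 11, labelled female, stood at 3.63. Without that array the counts of called members given below for the antibody and genotype comparisons were 60, 12, 5, 62 and 2, against 60, 12, 5, 63 and 2 with it. In bulk tissue, fewer cells of a type and less RNA per cell cannot be told apart.

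The first comparison asked how PKCe hearts differ from FVB hearts under IgG. The genes of all complexes were lower in PKCe hearts or did not pass the test: 60 of 82 were called lower and 0 higher, against 21.5 percent of all genes called lower. The fitted difference was below 0 for 81 of the 82, with a median of -0.26, against -0.05 over all genes. The changes were small for single genes. The largest, in Ndufaf1, was -0.58 ± 0.07.

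**Figure D1:**
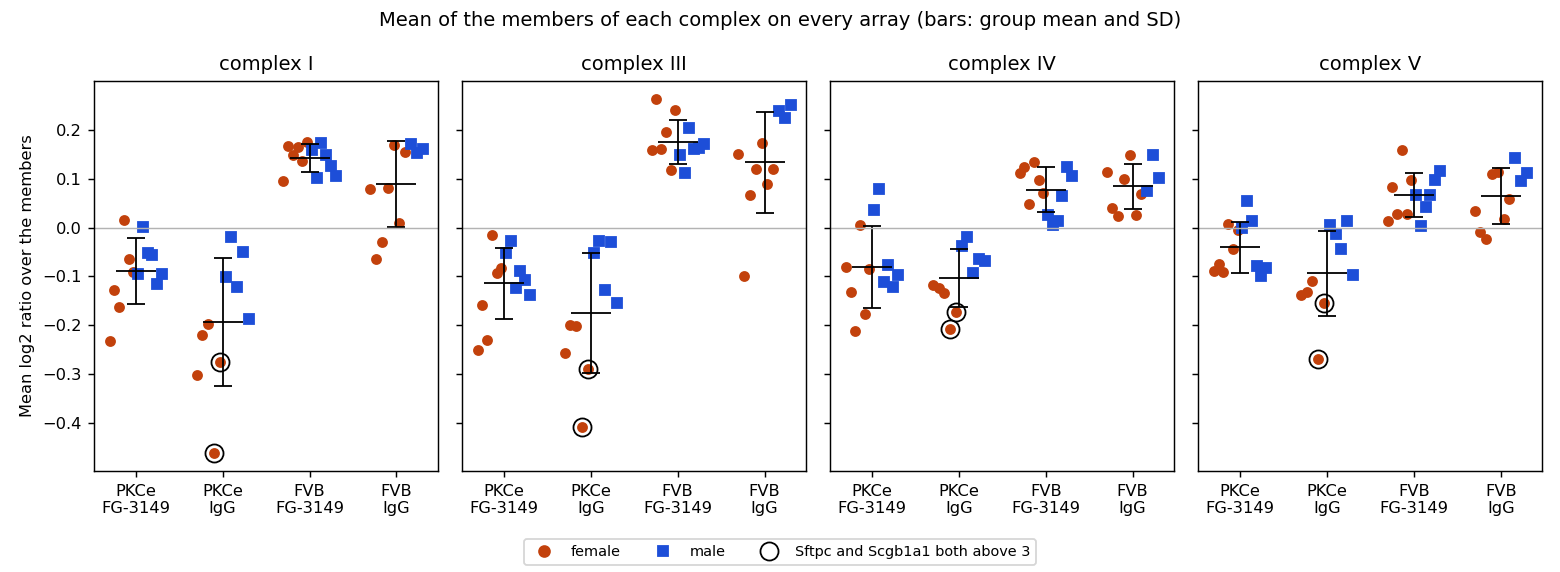
Mean log2 ratio over the members of complexes I, III, IV and V on each of the 44 arrays (vertical axis), by group, with the group mean and SD as bars and the 2 arrays of high lung markers ringed. Under IgG, PKCe and FVB hearts overlap for complexes I, III and V, with complex III at -0.10 on FVB IgG array 2. Under FG-3149 they overlap for complexes IV and V, with complex IV at 0.08 on the highest PKCe FG-3149 array. Complex IV under IgG and complexes I and III under FG-3149 show no overlap of PKCe with FVB hearts. The lowest complex I mean, -0.46, is on PKCe IgG array 9.

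In PKCe IgG hearts 28 of the 33 complex I subunits fell relative to FVB IgG hearts, with a median of -0.31, and all 33 differences were below 0. The 6 core subunits measured here, most of which bind the flavin or the iron-sulfur clusters that carry electrons, all fell. Ndufs7, one of the iron-sulfur subunits, ranged from -0.62 to 0.01 (median -0.22) in PKCe IgG hearts and from -0.02 to 0.46 (median 0.22) in FVB IgG hearts. The ranges overlapped at 1 edge: 9 of 10 PKCe IgG arrays lay below every FVB IgG array, and the difference was -0.49 ± 0.06 (adjusted p = 1.2e-09). Ndufs8, which carries further iron-sulfur clusters, ranged from -0.64 to -0.06 (median -0.21) in PKCe IgG hearts and from -0.02 to 0.29 (median 0.16) in FVB IgG hearts. The groups did not overlap, and the difference was -0.45 ± 0.05 (adjusted p = 4.8e-09). Its other probe sets ran from -0.29 to -0.15, all called lower. Here and below the probe set used was the one that varied most, so a size can be the largest of a gene's probe sets.

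Ndufv2, an iron-sulfur subunit of the part that oxidises NADH, likewise lay lower on all 10 PKCe IgG arrays than on any FVB IgG array, with a difference of -0.33 ± 0.04. Among the 27 supernumerary subunits, which surround the core, 22 fell. Ndufs4, a supernumerary subunit next to the NADH-oxidising part, differed by -0.49 ± 0.07, Ndufc2 by -0.44 ± 0.07, Ndufa7 by -0.41 ± 0.06 and Ndufb7 by -0.40 ± 0.05. Their other probe sets were called lower too, with smaller differences. These were -0.37 and -0.23 for Ndufs4, -0.19 for Ndufc2, -0.304 to -0.245 for Ndufa7 and -0.26 for Ndufb7. The 5 that did not pass on the probe set used were Ndufa2 (-0.08), Ndufb5 (-0.10), Ndufa12 (-0.15), Ndufb9 (-0.17) and Ndufb6 (-0.17). Of these Ndufb5, Ndufa12, Ndufb9 and Ndufb6 each had another probe set that was called lower. The 5 assembly factors, which help build complex I and are not part of it, all fell, with a median of -0.48. Ndufaf5, whose human counterpart modifies the core subunit NDUFS7, ranged from -0.55 to -0.01 in PKCe IgG hearts and from 0.01 to 0.42 in FVB IgG hearts, so the groups did not overlap.

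In complex III, 8 of 9 subunits fell in PKCe IgG hearts, with a median of -0.32. Uqcrfs1, the Rieske iron-sulfur protein through which electrons leave ubiquinol, had the lowest p of all members. It ranged from -0.48 to -0.03 (median -0.25) in PKCe IgG hearts and from 0.01 to 0.37 (median 0.25) in FVB IgG hearts. The groups did not overlap, and the difference was -0.49 ± 0.04 (adjusted p = 1.05e-12), a level 1.41 times lower. The structural core proteins Uqcrc1 and Uqcrc2 differed by -0.44 ± 0.07 and -0.35 ± 0.04, and Cyc1, the haem subunit that hands electrons to cytochrome c, by -0.28 ± 0.05. Uqcrh, the hinge protein, was the subunit that did not pass, at -0.07 ± 0.03 (adjusted p = 0.087). The calls of Uqcrb and Uqcrq depended on the probe set. Uqcrb differed by -0.32 on the one used and by -0.02 on the other, which did not pass. Uqcrq differed by -0.26 on the one used and by -0.11, -0.04 and 0.12 on the others, of which only -0.11 passed.

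Complex IV was more divided on the probe sets used: 9 of 17 members fell and 8 did not pass, with a median of -0.19. Among the 8, Cox6c had another probe set that was called lower, at -0.09. Cox5b, a subunit with no tissue isoform, ranged from -0.54 to -0.05 (median -0.19) in PKCe IgG hearts and from 0.04 to 0.34 (median 0.17) in FVB IgG hearts. All 10 PKCe IgG arrays lay below all 10 FVB IgG arrays, and the difference was -0.41 ± 0.04 (adjusted p = 3.1e-10). Cox5a, its single-form neighbour, fell by 0.36 on the log2 scale. Ndufa4 (-0.07 ± 0.03), Cox6b1 (-0.08 ± 0.04) and Cox4i1 (-0.13 ± 0.03) had smaller differences, of which the Cox4i1 one passed (adjusted p = 0.0019). Cox4i2, the form described in lung, stood at -0.10 ± 0.08 and did not pass.

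In complex V, 10 of 17 members fell on the probe sets used, with a median of -0.18. They included all 4 measured subunits of the peripheral stalk, which holds the head still while the rotor turns: Atp5o (-0.37 ± 0.09), Atp5pb (-0.30 ± 0.04), Atp5j (-0.20 ± 0.04) and Atp5h (-0.15 ± 0.04). Atp5d, in the central stalk, ranged from -0.46 to -0.04 in PKCe IgG hearts and from 0.04 to 0.48 in FVB IgG hearts, with no overlap. Its difference was -0.45 ± 0.05 (adjusted p = 5.2e-09). Atp5b, the catalytic subunit of the head, had a narrow spread: it ranged from -0.28 to -0.03 in PKCe IgG hearts and from -0.01 to 0.25 in FVB IgG hearts, and its difference of -0.24 ± 0.03 separated the groups fully. Among the genes of the membrane ring, Atp5g1 (-0.22) and Atp5g3 (-0.18) fell, and Atp5g2 (0.03) did not pass on the probe set used. Its other probe set, at -0.36, was called lower. Atp5a1 of the head (-0.12) and Atp5c1 of the central stalk (-0.19) did not pass on the probe set used either. The other probe sets of Atp5a1 (-0.27 and -0.25) and of Atp5c1 (-0.19) were called lower. Of 5 further subunits in the membrane or beside it, Atp5k and Atp5mpl fell, and Atp5md (-0.02), Atp5l (-0.05) and Atp5j2 (-0.06) did not pass. Atp5e, of the central stalk, had a difference of -0.00 ± 0.05. Cycs, the electron carrier between complexes III and IV, stood at -0.15 ± 0.08 (adjusted p = 0.12).

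The result was present in both sexes taken apart. In females 57 of 82 members were lower in PKCe IgG than in FVB IgG hearts, against 22 percent of all genes, and in males 39 of 82, against 7.29 percent. Uqcrfs1 differed by -0.56 ± 0.05 in females and by -0.42 ± 0.06 in males. The difference between the sexes was called for 0 members (limma, 0.0807 percent of all genes called), and 5 members had an unadjusted p under 0.05. The share of all genes under that unadjusted threshold was not counted, so the 5 cannot be set against it. The lowest p was that of Ndufa7, at -0.30 ± 0.10 (adjusted p = 0.40). Within PKCe IgG hearts the 5 females had complex I means from -0.46 to -0.20 and the 5 males from -0.19 to -0.02, with no overlap. In FVB IgG hearts the 7 females ran from -0.06 to 0.17 and the 3 males from 0.15 to 0.17, and 5 of those 7 females carried high atrial markers. The part of the atrial and lung markers in the difference between the sexes was not tested.

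Without the 2 arrays of high lung markers 56 members were lower in PKCe IgG hearts, against 16.4 percent of all genes. With the arrays of high atrial markers also left out, a setting chosen after seeing the data, 50 members were lower, against 14.2 percent of all genes, and Uqcrfs1 stood at -0.43 ± 0.04. The difference between the 3' and 5' Gapdh probe sets, a sign of RNA integrity, averaged 0.30 ± 0.25 in PKCe IgG hearts and -0.04 ± 0.08 in FVB IgG hearts (SD, n = 10 each). With it as a covariate 60 members were called lower, 26 of complex I and 12 of complex V among them, against 15.0 percent of all genes. With the mean of the adipocyte markers as a covariate 56 were called lower, against 20.9 percent. That mean held the white markers and 5 brown ones, Ucp1, Cidea, Elovl3, Ppara and Dio2. Between PKCe IgG and FVB IgG hearts Dio2 was called higher (2.30), Ucp1 (-2.18), Ppara and Elovl3 were called lower, and Cidea did not pass.

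The promoters of the members that fell are shown for 1 gene of each complex, the called gene with the lowest p whose promoter holds a match, so that the letters behind the motif counts can be read. Sequences are from RefSeq (GRCm38.p6), 250 bases before the start of transcription and 50 after it, 5′ to 3′ on the strand of the gene. Capitals mark matches to 4 short motifs known from nuclear genes of mitochondrial proteins: one form of the NRF1 core (GCGCATGC), an ETS core as bound by GABPA (CCGGAAGT), the ERR element (AAGGTCA) and the YY1 core (AAGATGGC), each on either strand.
Ndufs7 (chr10:80249199-80249498, plus strand): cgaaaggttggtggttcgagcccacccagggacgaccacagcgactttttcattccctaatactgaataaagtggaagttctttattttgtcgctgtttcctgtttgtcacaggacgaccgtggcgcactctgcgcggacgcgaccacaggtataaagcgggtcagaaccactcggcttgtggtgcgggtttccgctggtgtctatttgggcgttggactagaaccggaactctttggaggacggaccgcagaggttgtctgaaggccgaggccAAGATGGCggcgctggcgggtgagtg
Ndufaf5 (chr2:140170396-140170695, plus strand): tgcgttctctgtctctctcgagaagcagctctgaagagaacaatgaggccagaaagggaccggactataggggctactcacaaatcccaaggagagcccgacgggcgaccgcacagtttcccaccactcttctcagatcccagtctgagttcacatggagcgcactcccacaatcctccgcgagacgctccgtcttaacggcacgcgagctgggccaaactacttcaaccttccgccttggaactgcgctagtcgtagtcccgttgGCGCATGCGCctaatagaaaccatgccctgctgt
Uqcrc1 (chr9:108936398-108936697, plus strand): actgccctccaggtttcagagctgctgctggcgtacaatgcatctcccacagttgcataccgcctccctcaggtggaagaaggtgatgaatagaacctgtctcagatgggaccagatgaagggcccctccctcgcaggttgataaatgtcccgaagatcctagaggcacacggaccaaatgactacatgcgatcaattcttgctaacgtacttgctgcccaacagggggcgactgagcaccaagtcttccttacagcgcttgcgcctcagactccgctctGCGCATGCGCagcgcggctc
Cox8a (chr19:7217567-7217866, minus strand): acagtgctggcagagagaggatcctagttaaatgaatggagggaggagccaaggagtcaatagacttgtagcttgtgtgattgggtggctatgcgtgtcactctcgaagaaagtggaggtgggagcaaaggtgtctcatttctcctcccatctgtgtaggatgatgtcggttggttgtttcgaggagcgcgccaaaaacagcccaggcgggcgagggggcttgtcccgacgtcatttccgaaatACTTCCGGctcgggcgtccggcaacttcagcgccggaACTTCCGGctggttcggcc
Atp5pb (chr3:105959214-105959513, minus strand): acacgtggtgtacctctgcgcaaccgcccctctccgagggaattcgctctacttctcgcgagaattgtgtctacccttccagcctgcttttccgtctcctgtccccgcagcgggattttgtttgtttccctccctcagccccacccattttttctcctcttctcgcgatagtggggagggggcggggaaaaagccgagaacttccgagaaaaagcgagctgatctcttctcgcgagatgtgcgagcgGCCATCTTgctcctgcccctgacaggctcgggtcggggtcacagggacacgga

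A promoter was given for 68 of the 82 members. The NRF1 core stood in 11 of the 68, or 16.2 percent, against 3.0 percent of the 27025 genes with a promoter. It was found in Ndufaf4, Ndufaf5, Uqcrc1, Uqcr11, Cycs, Cox6a1, Atp5g2, Atp5k, Atp5l, Ndufa6 and Ndufa8. Its letters read almost the same on both strands, which is why Ndufaf5 and Uqcrc1 above show 1 run of 10 capitals for a match on each strand. The YY1 core stood in 9, or 13.2 percent, against 3.2 percent of all genes, with 6 of the 9 in complex I. The ERR element stood in 6 (8.8 percent, against 5.4 percent), 4 of them in complex V, and the ETS core in 5 (7.4 percent, against 4.3 percent). The members' promoters held 57.9 percent G and C on average, against 53.6 percent over all genes. A match is only a run of letters and says nothing of binding here. Uqcrfs1 and Cox5b, which had the lowest p of their complexes, held none of the 4 in this window.

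Muscle and other isoforms of complex IV were compared next. Cox6a2, Cox7a1 and Cox8b are the heart and skeletal muscle forms, and Cox6a1, Cox7a2 and Cox8a are the forms of most other tissues. Each pair was compared as the difference between both genes on the same array, which does not move with the scale of the array, by a permutation test of group labels within sex (100000 resamples, two-sided, Benjamini-Hochberg over 3 pairs in 4 comparisons, 12 tests). The pairs did not move alike.

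**Figure D2:**
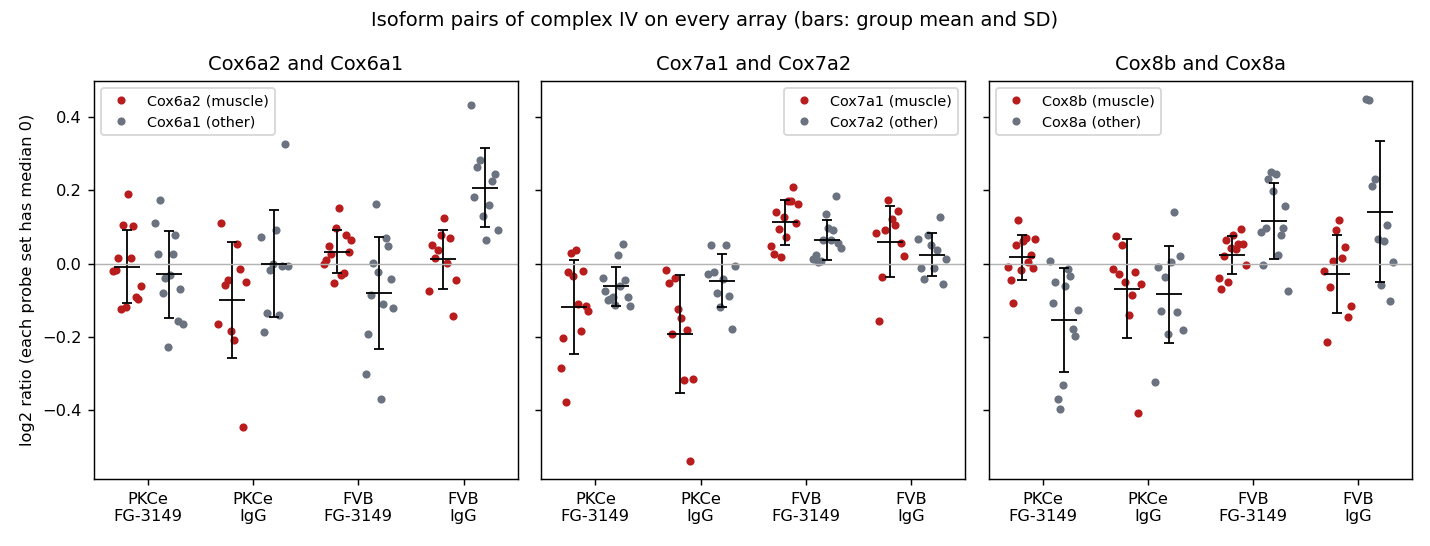
Log2 ratio of the muscle isoform (red) and the other isoform (grey) of 3 complex IV subunits on every array (vertical axis), by group, with the group mean and SD as bars. Cox7a1 is lower in PKCe IgG than in FVB IgG hearts while Cox7a2 differs less, and Cox8a differs more between PKCe and FVB hearts than Cox8b.

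Cox7a1 was lower relative to Cox7a2 in PKCe hearts. Cox7a1 ranged from -0.54 to -0.02 (median -0.17) in PKCe IgG hearts and from -0.16 to 0.17 (median 0.09) in FVB IgG hearts, and it fell by 0.28 on the log2 scale (SE 0.05, adjusted p = 1.4e-05). Cox7a2 ranged from -0.18 to 0.05 in PKCe IgG hearts and from -0.06 to 0.13 in FVB IgG hearts, with a difference of -0.07 ± 0.03 that did not pass. The pair difference shifted by -0.21 (permutation test, adjusted p = 0.0025). Between PKCe FG-3149 and FVB FG-3149 hearts it shifted by -0.10 (permutation test, adjusted p = 0.019). That call was lost with no sex term (permutation test, adjusted p = 0.077), in females alone (0.06) and in males alone, where the shift was -0.032 (0.45). The shift under IgG was -0.12 in males alone and did not pass there.

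For the third pair the shift had the opposite sign. Cox8a fell in PKCe IgG hearts by 0.20 (SE 0.06) and Cox8b had a difference of -0.05 ± 0.04, and the pair difference of 0.13 did not pass (permutation test, adjusted p = 0.25). The other probe sets of Cox8a differed by -0.14 and -0.13 and did not pass. Between PKCe FG-3149 and FVB FG-3149 hearts Cox8a differed by -0.27 ± 0.05 and Cox8b by -0.01 ± 0.04. There the other probe sets of Cox8a differed by -0.245, which passed, and by -0.08, which did not. The Cox8b minus Cox8a difference was then 0.17 ± 0.17 in PKCe FG-3149 hearts and -0.09 ± 0.10 in FVB FG-3149 hearts (SD, n = 12 each), a shift of 0.26 (permutation test, adjusted p = 0.0006), which in females alone was 0.15 and did not pass. For Cox6a2 and Cox6a1 the shift between PKCe IgG and FVB IgG hearts was 0.06 (permutation test, adjusted p = 0.62), with Cox6a2 at -0.11 ± 0.05, which did not pass, and Cox6a1 at -0.19 ± 0.06, which did. Between PKCe FG-3149 and PKCe IgG hearts Cox8b minus Cox8a shifted by 0.16 (permutation test, adjusted p = 0.041), and that call was lost in 14 of 22 fits that left out 1 array. Cox7a2l, a related protein that joins complex IV to complex III in supercomplexes, fell by 0.23 (SE 0.05). The testis forms Cox6b2 (-0.21 ± 0.15) and Cox8c (-0.27 ± 0.08) were also measured, and of these Cox8c passed. A ratio to the gene's own median does not show whether a testis form is expressed in the ventricle.

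The comparison of PKCe and FVB hearts was made a second time under FG-3149, on 24 arrays of which none is shared with the IgG comparison. Both came from the same fit, with a shared spread and sex term, and from probe sets chosen over all arrays. The calls are therefore not fully independent. Again most members were lower in PKCe hearts: 63 of 82, against 25.5 percent of all genes, with 2 higher, against 21.5 percent of all genes. The median difference was -0.21, against -0.05 over all genes. Of the members lower under IgG, 90.0 percent were lower under FG-3149, and of those lower under FG-3149, 85.7 percent were lower under IgG (54 genes in both). Over all genes those shares were 60.9 and 51.3 percent.

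Complex III was lower in every subunit measured, 9 of 9, though another probe set of Uqcrq, at -0.05, did not pass. Complex I followed with 26 of 33 subunits, the assembly factors with 5 of 5, complex V with 12 of 17 and complex IV with 10 of 17. Uqcrfs1 ranged from -0.26 to -0.01 (median -0.09) in PKCe FG-3149 hearts and from 0.21 to 0.42 (median 0.29) in FVB FG-3149 hearts, with a difference of -0.42 ± 0.04 (adjusted p = 4.6e-12). Cox5b ranged from -0.23 to -0.04 (median -0.11) in PKCe FG-3149 hearts and from 0.13 to 0.32 (median 0.21) in FVB FG-3149 hearts, with a difference of -0.35 ± 0.04 (adjusted p = 1.8e-09). Neither gene overlapped between the groups on the probe set used. Other probe sets of Cox5b, at -0.055 and -0.014, did not pass. The largest difference was that of Ndufs4, -0.61 ± 0.07, on the most variable of its 3 probe sets. The others gave -0.36, which passed, and -0.19, which did not. All 12 PKCe FG-3149 arrays lay below all 12 FVB FG-3149 arrays for 23 members, against 2.56 percent of all genes. Under IgG all 10 PKCe arrays lay below all 10 FVB arrays for 12 members, against 1.72 percent of all genes. The 13 members lower under neither antibody were Ndufa2, Ndufa12, Ndufb5 and Ndufb6 of complex I, Cox4i2, Cox6a2, Cox6c, Cox8b and Ndufa4 of complex IV, and Atp5a1, Atp5c1, Atp5e and Atp5g2 of complex V. That list holds only for the probe set used. Ndufa12, Ndufb5, Ndufb6, Cox6c, Atp5a1, Atp5c1 and Atp5g2 each had another probe set that was called lower under both antibodies. The rest of the list had no other probe set.

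**Figure D3:**
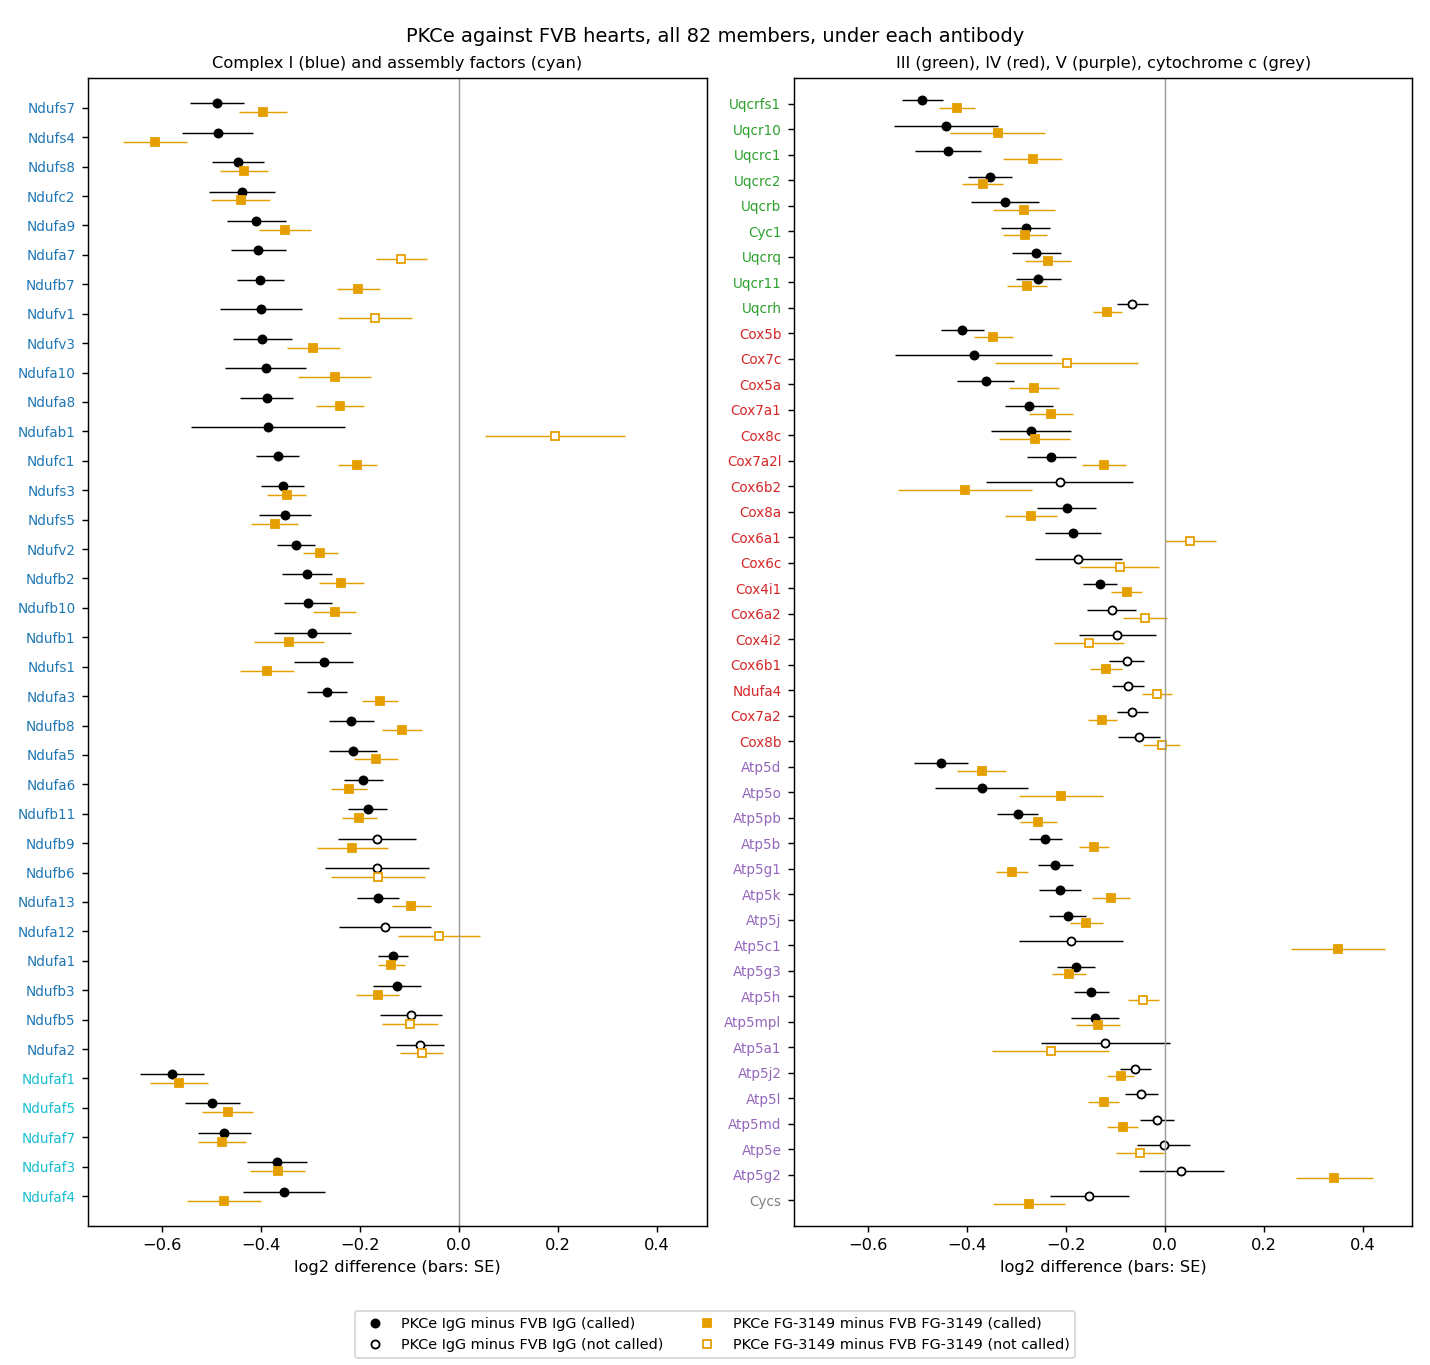
Log2 difference with its SE (horizontal axis) of all 82 members between PKCe IgG and FVB IgG hearts (black circles) and between PKCe FG-3149 and FVB FG-3149 hearts (orange squares), with filled marks for called differences. Nearly all marks lie left of 0, and Atp5c1 and Atp5g2 are the filled marks to the right of it.

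The 2 members called higher in PKCe FG-3149 hearts, Atp5c1 (0.35 ± 0.10) and Atp5g2 (0.34 ± 0.08), depended on the probe set. Atp5c1 encodes the shaft of the rotor and Atp5g2 one of the precursors of the membrane ring. For both genes the probe set used was the one that varied most, and the other gave the opposite sign, -0.13 for Atp5c1 and -0.19 for Atp5g2, both called lower. Across the 43 members with more than 1 probe set, all probe sets of 40 had the same sign between PKCe IgG and FVB IgG hearts, and in 14 members some probe sets passed and others did not. Atp5a1, Ndufa12, Ndufb6 and Cycs were among those whose chosen probe set did not pass while at least 1 other fell. With the mean of all probe sets of a gene, 69 members were lower in PKCe IgG hearts, against 23.0 percent of all genes, and 71 in PKCe FG-3149 hearts, against 27.3 percent. Between PKCe IgG and FVB IgG hearts Cox5b passed in 5 of its 6 probe sets, with differences from -0.41 to -0.11 over the 6. Between PKCe FG-3149 and FVB FG-3149 hearts its differences ran from -0.35 to -0.01, and those at -0.055 and -0.014 did not pass. The size given for it above is the largest of its probe sets in each comparison.

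**Figure D4:**
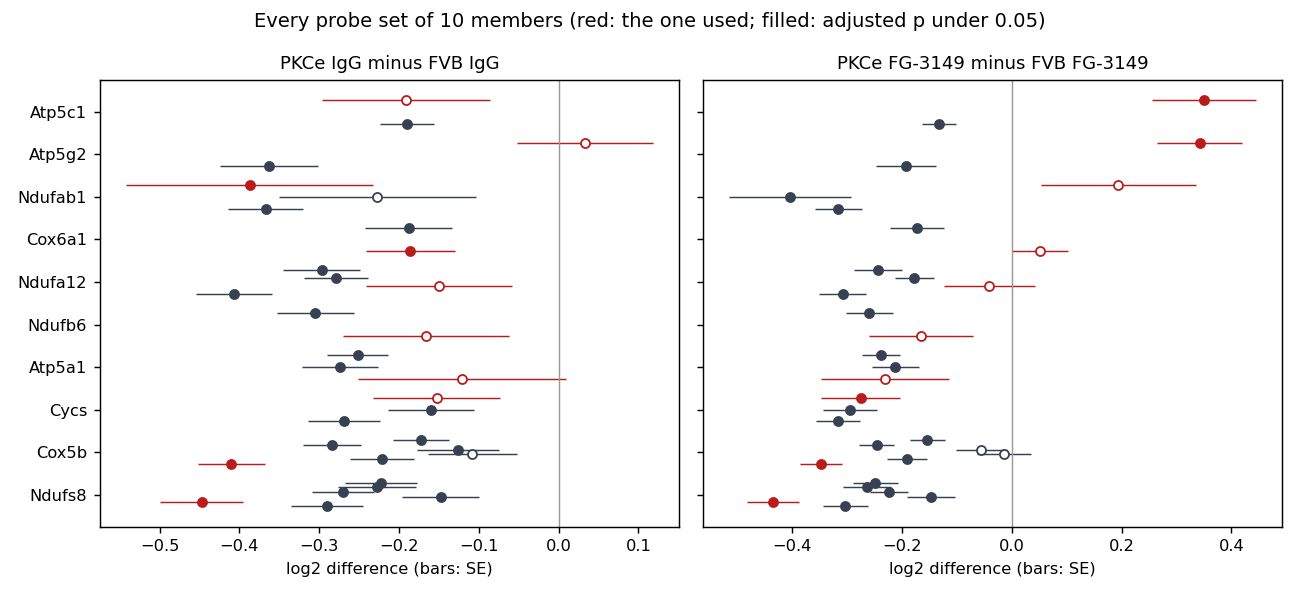
Log2 difference with its SE (horizontal axis) for every probe set of 10 members, between PKCe IgG and FVB IgG hearts on the left and between PKCe FG-3149 and FVB FG-3149 hearts on the right, with the probe set used in red and filled marks at an adjusted p under 0.05. The red marks of Atp5c1 and Atp5g2 on the right lie at 0.35 and 0.34, while their other probe sets lie at -0.13 and -0.19.

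The effect of FG-3149 in PKCe hearts was the next comparison, and it shares the PKCe IgG arrays with the first one. In the fit of all arrays 12 members were higher in PKCe FG-3149 than in PKCe IgG hearts and 0 were lower, against 5.08 percent of all genes called higher. Of these, 8 belong to complex I (Ndufa3, Ndufa5, Ndufa7, Ndufa9, Ndufs1, Ndufs3, Ndufs7 and Ndufv2), 1 to complex III (Uqcrfs1) and 3 to complex V (Atp5b, Atp5h and Atp5pb). No member of complex IV was called. The median difference was 0.07, against 0.02 over all genes, and the called differences ran from 0.10 (Atp5b) to 0.19 (Ndufs1).

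Those calls rested on few arrays. Without the 2 PKCe IgG arrays of high lung markers, 0 members were called (limma) and the median difference was 0.04, while calls of higher over all genes stood at 2.0 percent. Without the arrays of high atrial markers 0 members were called either, with 2.3 percent of all genes called higher. The count was 2 without PKCe IgG array 9 alone, 3 without array 10 and 4 without array 6. Leaving out array 7, 8 or 9 of PKCe FG-3149 gave 7, 5 and 6. The count was 1 with the Gapdh 3' minus 5' difference as a covariate and 5 with the replicate number as a block. Uqcrfs1 shows the size of the shift: it differed by 0.13 ± 0.04 with all arrays (adjusted p = 0.032) and by 0.09 ± 0.04 without the 2 lung arrays (adjusted p = 0.24). Its range was -0.26 to -0.01 in PKCe FG-3149 hearts and -0.48 to -0.03 in PKCe IgG hearts, and the groups overlapped. Ndufs7 ranged from -0.16 to -0.01 in PKCe FG-3149 hearts and from -0.62 to 0.01 in PKCe IgG hearts, so its PKCe FG-3149 values lay within the range of the PKCe IgG ones.

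By sex, 25 members were higher in PKCe FG-3149 than in PKCe IgG females, against 5.99 percent of all genes, and 0 in males, against 0.0323 percent of all genes. In females 17 of the 25 were complex I subunits. These counts come from the fit of group by sex over all arrays, and a fit of the female arrays alone called 13 members, 9 of complex I, against 4.0 percent of all genes. Ndufs7 differed by 0.33 ± 0.07 in females and by 0.03 ± 0.07 in males, and Uqcrfs1 by 0.22 ± 0.05 and 0.03 ± 0.05. The test of that difference between the sexes called 0 members (limma, 0.0161 percent of all genes called), with 25 at an unadjusted p under 0.05. For this unadjusted threshold too the share of all genes was not counted, so the 25 cannot be read as particular to the members. Both arrays of high lung markers are PKCe IgG females. In the fit of the female arrays alone, Ndufs7 stood at 0.33 ± 0.06 with them (adjusted p = 0.0035) and at 0.22 ± 0.06 without them (adjusted p = 0.079). Without them, a setting chosen after seeing the data, that fit called 0 members, against the 13 above, and 0.7 percent of all genes higher.

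**Figure D5:**
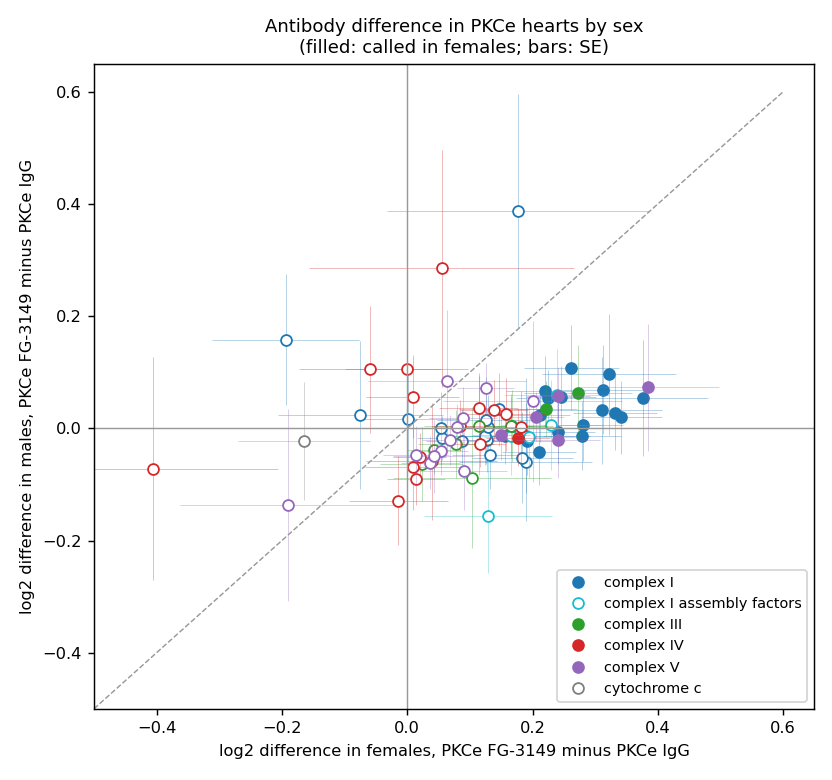
Log2 difference between PKCe FG-3149 and PKCe IgG hearts in females (horizontal axis) and in males (vertical axis) for the 82 members, with the SE as bars, colours for the complexes, filled marks for differences called in females and a dashed line of equal differences. The 25 filled marks lie right of 0, and the marks on the male axis spread around a median of 0.00.

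In FVB hearts FG-3149 went with 5 called members, against 9 percent of all genes. Ndufs1 (0.31 ± 0.06), Ndufs4 (0.30 ± 0.07) and Ndufs3 (0.14 ± 0.04) of complex I were higher in FVB FG-3149 than in FVB IgG hearts, and Cox6a1 (-0.27 ± 0.05) and Atp5c1 (-0.42 ± 0.10) were lower. Ndufs1, the largest iron-sulfur subunit of complex I, ranged from 0.12 to 0.48 in FVB FG-3149 hearts and from -0.15 to 0.10 in FVB IgG hearts, with no overlap. Cox6a1 ranged from -0.37 to 0.16 in FVB FG-3149 hearts and from 0.06 to 0.43 in FVB IgG hearts. Its second probe set differed by -0.07 and did not pass, and the second probe set of Atp5c1 by 0.05. The other 2 probe sets of Ndufs4 differed by 0.07 and 0.10 and did not pass. The Cox6a2 minus Cox6a1 difference shifted by 0.30 (permutation test, adjusted p = 0.0025). In males alone (0.19) and without the arrays of high atrial markers (0.20) that shift did not pass. White adipocyte markers moved with this comparison, 4 of 6 being lower in FVB FG-3149 hearts, against 9 percent of all genes called in either direction. Of the brown adipocyte markers Ucp1 (-2.13) and Dio2 (-0.83) were lower, and Cidea, Elovl3 and Ppara did not pass. With the mean of the white and brown markers together as a covariate 1 member was called, with 0.9 percent of all genes called lower and 0.6 percent higher. Without the arrays of high atrial markers, 5 of which are FVB IgG, 1 member was called, with 0.9 percent of all genes lower and 0.8 percent higher.

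The antibody differences in PKCe and FVB hearts were set against each other by an interaction term. It was called for 2 members, against 3.86 percent of all genes: Ndufa7 (0.29 ± 0.08, adjusted p = 0.020) and Atp5c1 (0.54 ± 0.14, adjusted p = 0.020). Without the arrays of high atrial markers, or with the adipocyte covariate, 0 members were called. For Uqcrfs1 the interaction was 0.07 ± 0.06 (adjusted p = 0.61) and for Cox5b 0.06 ± 0.06 (adjusted p = 0.68).

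Other genes of the same pathway, from lists that share with the members only the 5 Ndufaf assembly factors, were also mostly lower in PKCe IgG than in FVB IgG hearts. Of all genes 21.5 percent were called lower in this comparison, and 17.9 percent higher in the fit without the 2 arrays of high lung markers. All 4 subunits of complex II, which feeds electrons from succinate into the chain, fell: Sdhc by 0.61, Sdha by 0.46, Sdhb by 0.41 and Sdhd by 0.40 on the log2 scale. Among 33 assembly factors of the chain 23 fell and 2 rose, the copper chaperones Cox17 (0.17) and Cox19 (0.31). Of 9 genes of coenzyme Q synthesis 7 fell and Coq8b rose (0.41). Of 74 mitochondrial ribosome proteins, which translate the subunits encoded in mitochondrial DNA, 58 fell and 2 rose. Of 9 genes of mitochondrial transport, uncoupling and phosphocreatine shuttling 7 fell. The largest difference was that of the uncoupling protein Ucp3 (-1.525). Others were Slc25a4, the heart form of the ADP/ATP carrier (-0.60), the phosphate carrier Slc25a3 (-0.23), and Ckmt2, the muscle mitochondrial creatine kinase (-0.21).

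Of 18 regulators of mitochondrial genes 9 fell and 2 rose in PKCe IgG hearts, against 21.5 percent of all genes called lower. Ppargc1a, the coactivator of mitochondrial biogenesis, had a difference of -0.76 (adjusted p = 6.2e-06), Gabpa -0.32, Tfam, which packages mitochondrial DNA, -0.26, and Esrra, the oestrogen-related receptor, -0.23. Nrf1 (0.40, adjusted p = 0.035) and Pprc1 (0.39) were higher. Between PKCe FG-3149 and FVB FG-3149 hearts Ppargc1a was -0.42, Tfam -0.30 and Esrra -0.38, all called lower, and Gabpa (-0.14) and Nrf1 (0.25) did not pass. Between PKCe FG-3149 and PKCe IgG hearts Ppargc1a was 0.56 higher (adjusted p = 0.0027), Gabpa 0.26 and Sdhc 0.36, in the same fit of all arrays whose member calls were lost without 2 of them. Tfam (0.02) and Esrra (-0.03) did not pass there.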

How the data were processed

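RNA from the left ventricles of 44 mice (250 ng each) was hybridised to Affymetrix 430A 2.0 arrays. The deposited values are linear ratios that the authors made by GCRMA and per-gene median normalization in GeneSpring GX 7.3.1, per the series' design text. Of 22690 probe sets, 20393 name 1 gene, 691 several and 1606 none. Array medians ran from 0.954 to 1.032, and the number of arrays limits precision.

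Ratios were turned to log2 with no pseudocount. Each of 12394 genes was represented by whichever of its 1-gene probe sets varied most (by SD). Group means and a sex term were fitted over all 44 arrays by lmFit and eBayes of limma 3.58.1 (R 4.3.3) and Benjamini-Hochberg adjustment over all genes; a fit of group by sex gave the values per sex. The fit was also run on simulated data with independent noise and changes planted in the PKCe IgG group. Those data held no atrial, lung or RNA integrity differences, so that run cannot speak to them. Promoters were RefSeq's, of GRCm38.p6.

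The members, gene lists, motifs and comparisons were chosen with earlier results of these data known. Genes named were Uqcrfs1, Cox5b, the complex IV isoforms, up to 5 called members with the lowest p and up to 2 with the highest p per comparison and complex, called members moving against their complex, and members with called probe sets of both signs. Other members were named for their role after their values were seen. Replicate numbers do not pair the samples: deviations of same-numbered arrays correlated from -0.497 to 0.239 over the comparisons. Alternatives were other scalings, filters, covariates, probe set rules, each sex alone and arrays left out.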

Additional observations from a re-analysis of the deposited data

Results flagged for a closer look

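On 7 occasions among 122 groups of 10 arrays tested, 1 array stood far from the other 9; chance gives about 1 in 20. PKCe IgG array 9, one of the 2 arrays of high lung markers, was far below its group for Cox5b (-0.54), Uqcr11 (-0.48) and Cox8b (-0.41). FVB IgG array 2 was far below its group for the complex III mean (-0.10) and for Uqcrc2 (-0.12). FVB IgG array 9 stood low for Atp5j (-0.14), and FVB IgG array 8 stood high for Ndufa4 (0.15).

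The antibody difference in PKCe hearts exceeded that in FVB hearts for Atp5c1 (0.54) and Ndufa7 (0.29), by the interaction term. The second probe set of Atp5c1 stood at 0.05 in FVB hearts and did not pass, against -0.42 for the one used. The 5 probe sets of Ndufa7 ran from 0.11 to 0.18 in PKCe hearts and from -0.11 to 0.01 in FVB hearts.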

How the results depend on the processing

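The count of members lower in PKCe IgG than in FVB IgG hearts (60) was 121 of 153 with every probe set on its own and 57 to 63 with 1 array left out. The count lower in PKCe FG-3149 than in FVB FG-3149 hearts (63) was 41 without the genes of low SD, 121 with every probe set and 60 to 65 with 1 array left out. Leaving out genes of low SD takes members out before the fit, so it can lower any count here without a call being lost. How many members that setting kept is not given. With the replicate number as a block the counts were 58, 62, 5 (FVB) and 2 (interaction), and 5 for the antibody in PKCe hearts.

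The antibody count in PKCe hearts (12) was 7 with no sex term, 5 with arrays centred, 1 with quantile normalization, 7 without genes of low SD, 4 with only its groups fitted, 1 with the Gapdh covariate, 21 with every probe set, and 2 to 16 with 1 array left out. It was 0 in males, without arrays of high atrial or of high lung markers, with the ventricular marker covariate, at adjusted p under 0.01, and in females without the lung arrays (chosen after seeing the data). The FVB antibody count (5) was 3 in females, 0 in males, 1 without atrial arrays, 1 with the adipocyte covariate and 4 to 8 with 1 array left out (8 without FVB IgG array 10). The interaction count (2) was 1 with no sex term, quantile normalization, mean probe sets or females only, 5 with the Gapdh covariate, 0 in males, without atrial arrays, with the adipocyte covariate or at adjusted p under 0.01, and 2 to 3 with 1 array left out. Both sex difference counts stayed 0.

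The assembly factor median under IgG was -0.33 in males. For the antibody in PKCe hearts, the complex I median was 0.19 in females, and in males the assembly factor and complex V medians turned to -0.014 and -0.011.

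Cox7a1 minus Cox7a2 under IgG was -0.12 in males (permutation test, adjusted p = 0.26), and under FG-3149 -0.10 with no sex term (0.077), -0.17 in females (0.06) and -0.032 in males (0.45). With mean probe sets its antibody shift in PKCe hearts was 0.11 and passed, and it ran from 0.074 to 0.109 with 1 array left out. Cox8b minus Cox8a for the antibody in PKCe hearts no longer passed with no sex term (0.16), in females (0.15) or males (0.16), with mean probe sets (0.10) or without atrial arrays (0.14), and ran from 0.12 to 0.18 with 1 array left out. Under FG-3149 it was 0.15 in females. Cox6a2 minus Cox6a1 in FVB hearts was 0.19 in males and 0.20 without atrial arrays. The cause of these changes was not tested.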

Other observations

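ND5, a complex I subunit encoded in mitochondrial DNA and outside the symbol rule, ranged from -0.21 to 0.13 (median 0.04) in PKCe IgG hearts and from -0.52 to 0.06 (median -0.05) in FVB IgG hearts. Its difference of 0.15 ± 0.07 did not pass (limma, adjusted p = 0.075). Between PKCe FG-3149 and FVB FG-3149 hearts it was -0.07 ± 0.06 (adjusted p = 0.34).

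Probe sets that match several genes were kept out of the counts. Between PKCe IgG and FVB IgG hearts the one for Ndufs6 and related sequences stood at -0.22 and was called lower, those of the Ndufb4 family at -0.25 and -0.24, and the one for Ndufa11 at 0.03, which did not pass.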
